A study of Mus musculus with 2 samples.

Results

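The mRNAs of the proteins that build the cytosolic ribosome were described in the jejunum, a part of the small intestine, of male C57BL/6J mice. The high-glucose group ate a diet labelled HGD (20% glucose) and the control group ate regular chow (AIN76), each for 4 weeks. The mice were 4 weeks old before 2 weeks of acclimation and 10 weeks old at the end, and no other treatment or allele is given in the labels. There was 1 Affymetrix array per diet and the number of animals behind an array was not given in the sources used here. Each difference below therefore sets 1 array against 1 other and has no replicate error and no test, and the number of arrays limits the precision.

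Members were all gene symbols in the authors' comparison table that start with Rpl or Rps and a digit, or are Rpsa, Rplp0, Rplp1 or Rplp2, without the kinases whose symbols start with Rps6k. The rule found 53 genes among 1561 listed symbols, 30 of the large and 23 of the small subunit, on 66 of the 1583 listed probe sets that carry a symbol. The table lists 1625 probe sets in all and is a selection made by the authors from a comparison of these diets, by a rule that the sources used here do not give. Membership thus already depends in part on that comparison. Ribosomal protein genes outside it are unnamed here.

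A ribosome consists of a large subunit, which joins amino acids, and a small subunit, which reads the mRNA. Each holds ribosomal RNA and a set of small proteins, mostly present in a single copy, whose genes are transcribed at high levels in all growing cells. In the intestine the crypt cells that renew the epithelium and the secretory cells are known for a high demand for ribosomes. The mRNAs of these proteins belong to the TOP class, which starts with a run of the pyrimidines C and T. Through that run the protein Larp1 and the kinase mTOR control how much of each mRNA is translated, a step that arrays of mRNA do not measure.

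The promoters of the members are shown first because the genes are known to be transcribed together. RefSeq promoter sequences on GRCm38.p6, 250 bases before and 50 bases after an annotated start, were matched for 38 of the 53 genes. Among the 15 others were Rpl3, Rpl7, Rpl17, Rpl21, Rpl23a, Rpl29, Rpl30, Rplp1, Rps14, Rps20, Rps27a and Rps29. A run of at least 8 C and T letters in any order, with no A or G, touched an annotated start in 13 of the 38 genes (34.2%), and in 6.30% of the 27025 genes with a promoter in the table. Runs were searched on the gene's own strand only. The 8 longest runs are printed as 30 bases, 15 on either side of the start, with the run in capitals.

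Rpl35 (chr2:39005117-39005146, minus strand): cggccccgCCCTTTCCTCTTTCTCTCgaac
Rpl15 (chr14:18270972-18271001, minus strand): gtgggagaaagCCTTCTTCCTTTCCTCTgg
Rpl14 (chr9:120571502-120571531, plus strand): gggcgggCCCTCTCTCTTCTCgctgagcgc
Rpl35a (chr16:33056467-33056496, plus strand): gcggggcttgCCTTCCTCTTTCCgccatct
Rps10 (chr17:27635230-27635259, minus strand): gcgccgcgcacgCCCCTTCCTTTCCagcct
Rpl19 (chr11:98026909-98026938, plus strand): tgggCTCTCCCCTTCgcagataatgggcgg
Rpl28 (chr7:4792950-4792979, plus strand): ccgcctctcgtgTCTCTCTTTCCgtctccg
Rps18 (chr17:33955651-33955680, minus strand): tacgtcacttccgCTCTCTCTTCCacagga

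For a gene with several annotated starts, the start with the longest run is shown. The genes with the highest and the lowest ratio among those with a promoter, Rps25 and Rpl27, had short runs at their annotated starts, again in capitals.

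Rps25 (chr9:44407699-44407728, plus strand): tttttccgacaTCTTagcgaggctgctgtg
Rpl27 (chr11:101442230-101442259, plus strand): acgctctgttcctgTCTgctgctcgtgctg

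A second motif, CCGGAAG, is the core bound by factors of the ETS family such as GABP. It was found on either strand of the 300 bases in 20 of the 38 genes (52.6%) and in 9.93% of all genes in the table. The motif CTTTCC, searched on either strand within 20 bases of a start, was found in 8 of the 38 genes (21.1%) and in 4.30% of all genes. It lies inside many of the C and T runs above, so that these counts overlap. Matches are letters in a window and do not show binding. The 60 bases before an annotated start of the 4 genes with the highest ratios among those that hold CCGGAAG there show its place, with the motif or its reverse complement in capitals. The start of Rpl19 used here is another annotated start than the one above.

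Rps10 (chr17:27635245-27635304, minus strand): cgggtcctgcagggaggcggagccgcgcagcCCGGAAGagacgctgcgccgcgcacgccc
Rps7 (chr12:28635954-28636013, minus strand): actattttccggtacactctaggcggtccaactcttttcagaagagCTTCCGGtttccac
Rpl19 (chr11:98026650-98026709, plus strand): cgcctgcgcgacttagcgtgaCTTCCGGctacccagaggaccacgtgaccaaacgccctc
Rpl37 (chr15:5116553-5116612, plus strand): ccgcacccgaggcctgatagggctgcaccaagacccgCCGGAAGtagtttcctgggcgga

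The values came from the deposited signals of both arrays and from the authors' own comparison. The signals are linear intensities. Their median over the array was 7.9 on the high-glucose array and 13.1 on the control array, and over 11315 expressed probe sets the median log2 ratio of high-glucose over control was -0.97. This array-wide shift is subtracted wherever a ratio is called relative. Expressed means a mean log2 signal at or above the array median. The 18 probe sets of RNA spikes added at hybridisation had a median log2 ratio of 0.12, and the 24 of poly-A spikes -0.93. All 53 genes counted as expressed, each represented by its brightest probe set.

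The labelled tissue was checked against markers, and the signals went against the label in part. Of the listed markers 0 of 5 Paneth cell, 0 of 7 B cell and 0 of 5 proliferation genes counted as expressed, with summed signals of 16.5, 18.7 and 15.1 on the high-glucose array and 20.2, 26.4 and 41.3 on the control array. Slc5a1, the glucose transporter of the enterocyte surface, had 0.8 on the high-glucose array and 4.6 on the control array. The other 7 of 8 enterocyte genes counted as expressed, with Apoa1, Apob and Fabp2 above the 90th percentile on both arrays. The rest of these 7 were dim, with signals from 12.2 to 31.5 on the high-glucose array and from 7 to 64.5 on the control array. Which cells the signals of Apoa1, Apob and Fabp2 came from was not tested. Of the 7 expressed enterocyte genes, 6 were above 0 relative to the shift, where 50% of expressed probe sets were. At least 1.5-fold higher were 5, where 14.7% of expressed probe sets were, and only Apoa1 and Fabp2 among these 5 were above the 90th percentile. The median relative log2 ratio of 0.85 was that of a dim gene, with signals of 12.2 on the high-glucose array and 13.3 on the control array. Both listed hepatocyte genes were above the 90th percentile too, Serpina1a with 4065.3 on the high-glucose array and 5068.6 on the control array and Plg with 1994 and 3968.3 on these arrays.

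All 6 listed pancreatic acinar genes lay at least 1.5-fold below the shift in the high-glucose sample, with summed signals of 93.7 on the high-glucose array and 4016 on the control array. None of the 6 was at 0, and the lowest was Pnliprp2, with 0.5 on the high-glucose array and 41.1 on the control array. The 4 goblet cell genes summed to 43.8 on the high-glucose array and 567.9 on the control array, of which Zg16 alone gave 16.7 and 514.3, while Tff3 lay at the shift. The 5 smooth muscle genes summed to 25.5 on the high-glucose array and 45.4 on the control array, of which Acta2 alone gave 4.6 and 26.4. The SLR introduced below did not follow these signals. It ran from -5.5 to -1.6 over the B cell genes in the authors' deposited table, and it was 4.2 for Plg. The part of cell composition in the ribosomal protein values was not tested, and in bulk tissue fewer cells of a type and less RNA per cell cannot be told apart.

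The ribosomal protein mRNAs were among the brightest on both arrays. Over the 53 genes the signal had a median of 1018 on the high-glucose array, from 21.4 to 3414, and a median of 1745 on the control array, from 39.2 to 4924. The median gene lay at percentile 98.9 of the high-glucose array and 98.8 of the control array. Of the 66 probe sets, 65 were above the 90th percentile of mean signal, and the 66 together carried 5.27% of the summed signal of the high-glucose array and 4.87% of that of the control array. The exception was Rpl5, whose protein escorts the 5S ribosomal RNA into the large subunit. Its only listed probe set had signals of 21.4 on the high-glucose array and 39.2 on the control array. Signals of different probe sets differ with their affinity, so the order of genes by signal in the plot of signals is not an order of mRNA abundance.

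**Figure D1:**
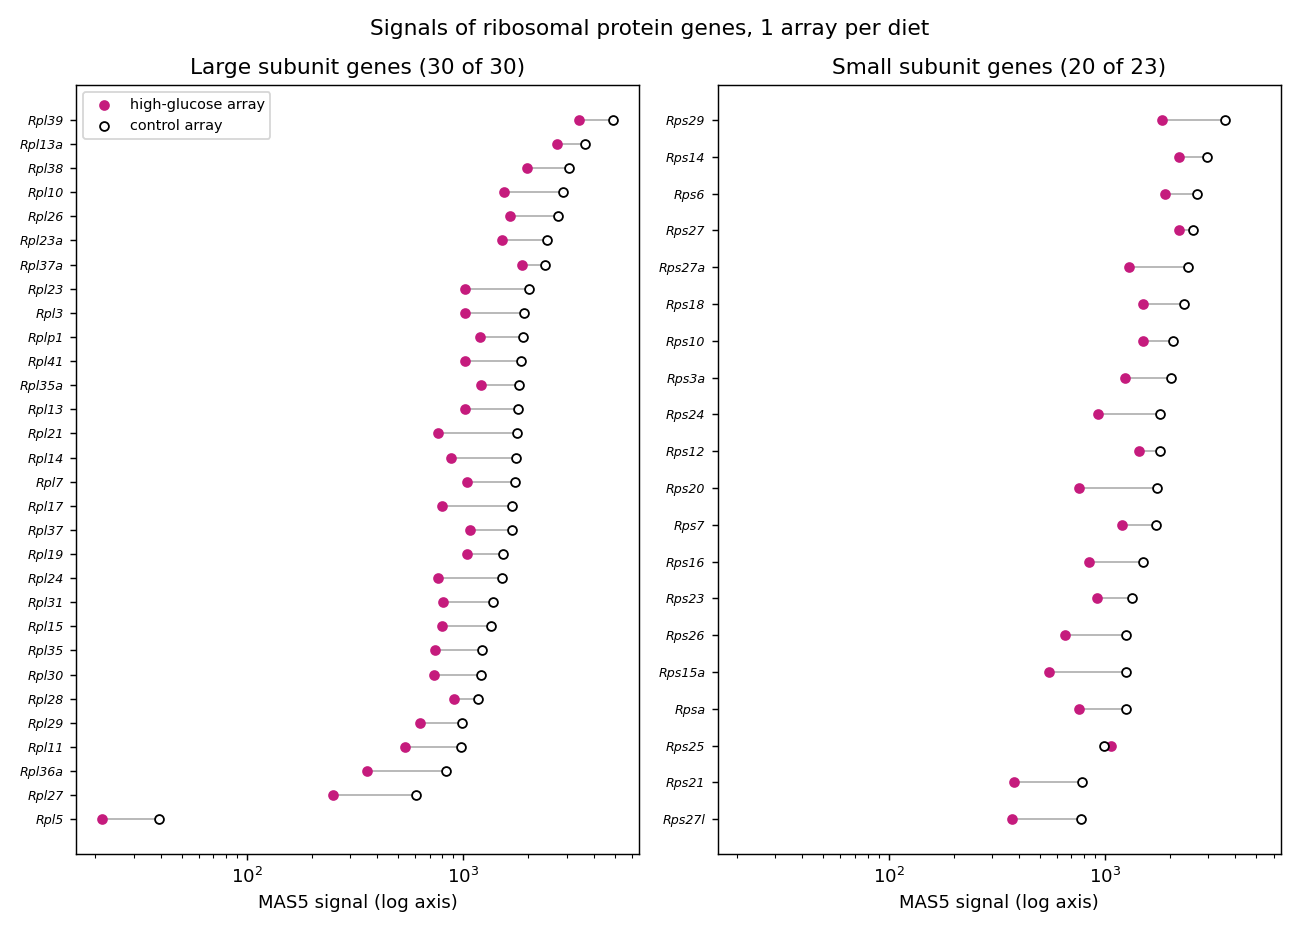
MAS5 signals of 30 large and 20 of the 23 small subunit genes on the high-glucose array (filled) and the control array (open), 1 array per diet, on a log axis in arbitrary units. The high-glucose point lies left of the control point for every gene drawn except Rps25.

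As deposited, the signal of 52 of the 53 genes was lower on the high-glucose array, as was that of 94.7% of all expressed probe sets. The median log2 ratio was -0.72, against -0.97 for all expressed probe sets. Relative to the shift the median was therefore 0.25, with 42 genes above 0 and 11 below, where 50% of expressed probe sets were above, and it was -0.0063 when the arrays were instead scaled to their medians. Relative log2 ratios ran from -0.30 to 1.08. At least 1.5-fold higher relative to the shift were 5 genes, where 14.7% of expressed and 8.57% of bright probe sets were. Bright here means above the 90th percentile of mean signal. In the other direction 0 genes passed 1.5-fold, where 14.3% of expressed and 7.47% of bright probe sets did. The members' share past 1.5-fold upward lay between these backgrounds.

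Other probe sets of like signal also lay above the array-wide shift. The 795 other probe sets in the same range of mean log2 signal as the members without Rpl5, from 8.60 up to that of Rpl39, had a median relative log2 ratio of 0.14. Among these, 65.4% were above 0, against 52.9% of bright probe sets. Past 1.5-fold were 11.2% of them upward and 4.03% downward. When each ratio was instead measured from a loess trend over signal level, the median of the 53 genes was 0.041, with 32 genes above and 21 below the trend. The only gene then past 1.5-fold was Rps25, at 0.91. Within the members, too, brighter genes had higher ratios. Across the 53 genes, mean log2 signal and relative log2 ratio were correlated with r = 0.37 (Pearson) and rho = 0.48 (Spearman), and without Rpl5 with r = 0.49 and rho = 0.48. These points share 2 arrays and the signals enter both axes.

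**Figure D2:**
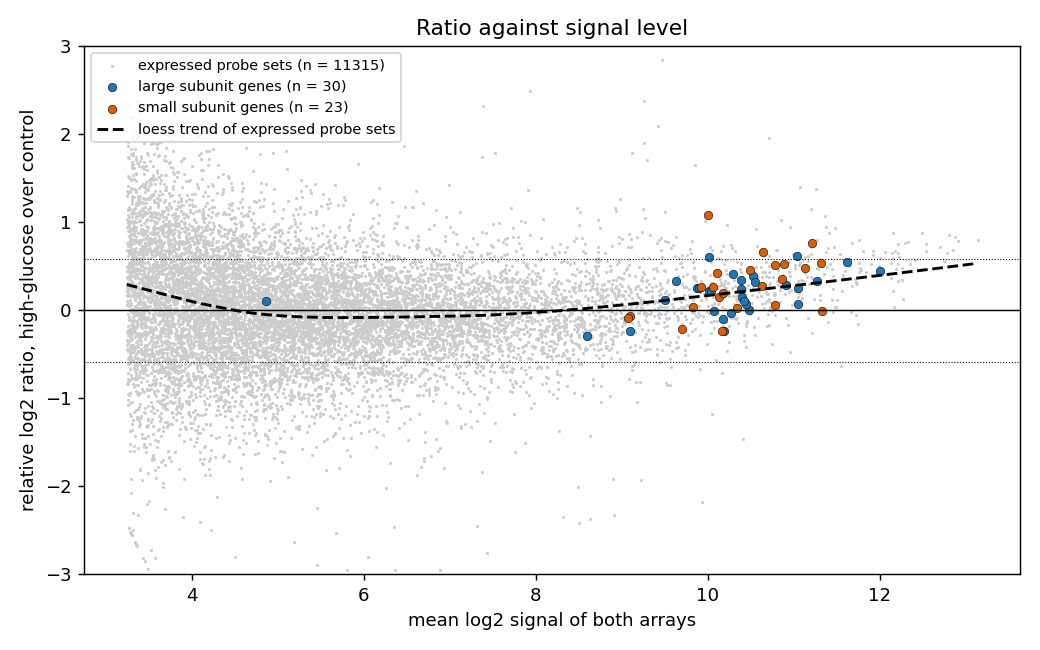
Relative log2 ratio (high-glucose over control, array-wide shift at 0) against mean log2 signal for 11315 expressed probe sets (grey) and the 30 large and 23 small subunit genes. The dotted lines mark 1.5-fold and the dashed line is the loess trend, about which the ribosomal protein genes lie with residuals from -0.42 to 0.91. The axis is limited to -3 to 3.

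The genes of the large and the small subunit had nearly the same values. The median signal of the large subunit genes was 1016.5 on the high-glucose array and 1739.5 on the control array. For the small subunit genes it was 1065 on the high-glucose array and 1745 on the control array. Their medians are described as groups only, since probe sets differ in affinity. The median relative log2 ratio was 0.23 over 30 large subunit genes, with an interquartile range of 0.27, and 0.26 over 23 small subunit genes, with an interquartile range of 0.46. The difference of the medians, large minus small, was -0.035, inside the spread of either group, and it turned to 0.025 with each probe set counted. Above the shift lay 24 of 30 large and 18 of 23 small subunit genes. The small subunit genes reached further up, to 1.08 for Rps25 against 0.62 for the highest large subunit gene, Rpl37a, and the lowest values were -0.23 for small and -0.30 for large subunit genes.

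The 6 highest ratios belonged to 3 small and 3 large subunit genes. Rps25, a protein of the small subunit head that is needed in yeast and human cells for initiation at several viral internal ribosome entry sites, had a signal of 1064.6 on the high-glucose array against 987 on the control array. It was the only member with a higher signal on the high-glucose array as deposited, and its relative log2 ratio was 1.08, a 2.12-fold higher level. Its probe set carries the suffix s, which marks probes shared between transcripts. Rps27, a zinc-binding protein of the small subunit, followed with signals of 2207.6 on the high-glucose array and 2547.6 on the control array and a relative log2 ratio of 0.76.

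Rps12, another small subunit protein, had signals of 1438.4 on the high-glucose array and 1786.1 on the control array, a relative log2 ratio of 0.66. Its second probe set did not show this, as described below. The large subunit proteins Rpl37a and Rpl28 came next. Rpl37a had signals of 1861.5 on the high-glucose array against 2379.1 on the control array, and Rpl28 had 909.1 against 1170.3, with relative log2 ratios of 0.62 and 0.61. Rpl13a, which in human monocytes also takes part in silencing inflammatory mRNAs, stood just under 1.5-fold at 0.55, with signals of 2718.9 on the high-glucose array and 3652.2 on the control array. All of these except Rps25 had log2 ratios as deposited below 0, and lay above 0 only relative to the shift.

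At the low end, 6 genes were led by Rpl27, with signals of 250.1 on the high-glucose array against 602.1 on the control array and a relative log2 ratio of -0.30. Rpl36a, which lies near the exit site of the transfer RNA, had signals of 359.1 on the high-glucose array and 832 on the control array, and a relative log2 ratio of -0.24. Rpl21 stood at -0.24 as well, from 764.8 on the high-glucose array and 1768 on the control array. All 3 belong to the large subunit. The small subunit protein Rps20 had signals of 756.9 on the high-glucose array and 1745 on the control array, a relative log2 ratio of -0.23. For Rps15a, also of the small subunit, they were 552.3 on the high-glucose array and 1253.6 on the control array, a relative log2 ratio of -0.21. Rpl17, which lines the tunnel through which the new protein leaves the ribosome, stood at -0.11, with 799.3 on the high-glucose array and 1687.8 on the control array. All 6 genes were within 1.5-fold of the array-wide shift.

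Proteins around the exit tunnel had differing ratios. Beside Rpl17 at -0.11, Rpl39 of the same tunnel stood at 0.44, with signals of 3413.8 on the high-glucose array and 4924.2 on the control array. Rpl23a and Rpl35, which sit at the tunnel's mouth where the signal recognition particle docks, had relative log2 ratios of 0.28 and 0.25. Of the proteins at the catalytic core, Rpl3 stood at 0.07 and Rpl10, which is added late in assembly, also at 0.07. Rplp1, the only stalk protein among the members, recruits elongation factors. Its signals were 1195.9 on the high-glucose array and 1880.8 on the control array, a relative log2 ratio of 0.32. The partners of the 5S ribosomal RNA, Rpl5 and Rpl11, which can also bind the p53 regulator Mdm2, stood at 0.10 and 0.11.

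Among small subunit proteins with known further roles, Rps6, the substrate of the S6 kinases, had signals of 1892.9 on the high-glucose array against 2671.8 on the control array and a relative log2 ratio of 0.47. Rpsa, also known as a laminin receptor, stood at 0.26, and Rps23 of the decoding centre at 0.42. Rps27a, made as a fusion with ubiquitin, stood at 0.06, and Rps26, which contacts the mRNA at its exit, at 0.03. Rps27l is the only member that is a paralogue of a standard ribosomal protein, and in human and mouse cells it is a p53 target. Its signals were 371.4 on the high-glucose array and 773.4 on the control array, with a relative log2 ratio of -0.09, against 0.76 for Rps27. The genes not named so far lay between Rps21, at -0.07, and Rps14, at 0.53.

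For 11 genes the table lists more than 1 probe set, 9 with 2 and 2 with 3, which gives the only repeat measurement within an array. The spread of the log2 ratio between probe sets of a gene had a median of 0.29 and ran from 0.09 to 0.85. This is larger than the median of 0.25 by which the group lay above the shift. A spread within single genes is, however, not the error of a median over 53 genes. In 9 of 11 genes all probe sets lay on the same side of the shift. The exceptions were Rps24 and Rps12. For Rps24, the brighter probe set had signals of 932.1 on the high-glucose array and 1791.9 on the control array, and the other 318.8 and 1102.7 on the same arrays. Their log2 ratios as deposited were -0.94 and -1.79, and the dimmer probe set, at -0.82 relative to the shift, was the only one of the 66 that was lower by 1.5-fold or more. For Rps12 the brighter probe set had a log2 ratio as deposited of -0.31 and the other -1.07, from signals of 351.1 on the high-glucose array and 734.6 on the control array. Elsewhere the probe sets differed less. For Rps10 the log2 ratios as deposited were -0.46 for the brighter and -0.89 for the dimmer probe set, for Rpl13a -0.43 and -0.74, and for Rps6 -0.50 and -0.79. Rpl23a, with 3 probe sets, had -0.69, -0.80 and -0.90 from the brightest to the dimmest. In Rpl13, Rpl21 and Rpl41 the dimmer probe set had the higher value, -0.72, -1.07 and -0.67, against -0.82, -1.21 and -0.87 for the brighter. In Rpl7 the values were -0.73 for the brighter and -0.82 for the dimmer probe set. The brightest probe set had the highest ratio in 8 of the 11 genes, so that choosing it gave higher values in these. With the mean over the probe sets, the median relative log2 ratio of the 53 genes was 0.21 in place of 0.25.

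**Figure D3:**
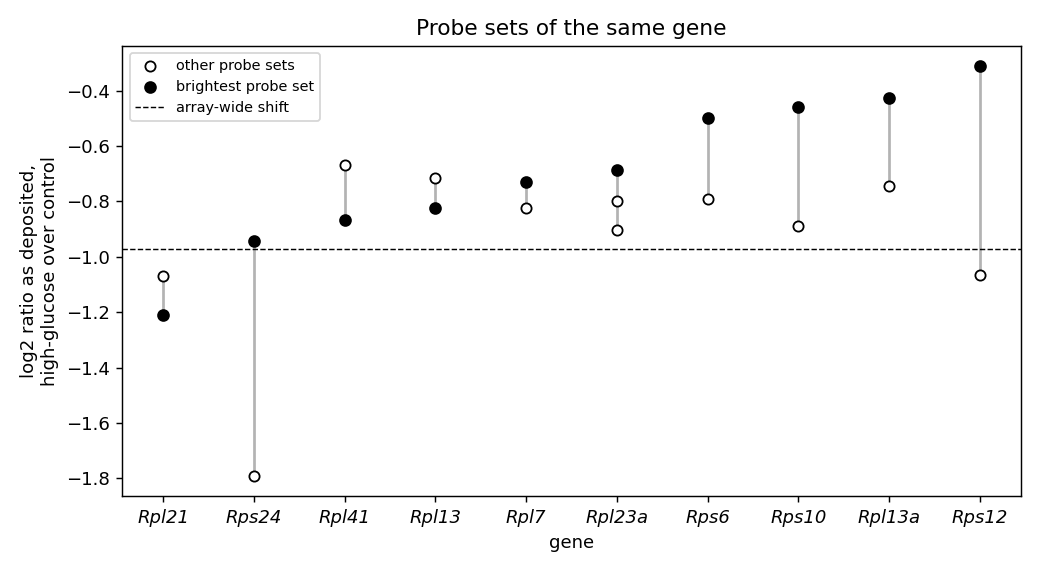
Log2 ratio as deposited (high-glucose over control) of each probe set of 10 of the 11 genes with more than 1, with the brightest probe set filled and the array-wide shift of -0.97 dashed. Probe sets of a gene differ by 0.09 to 0.85, and those of Rps24 and Rps12 lie on both sides of the shift.

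The authors' deposited table gives another picture of the same genes. It holds the SLR, a log2 ratio of signals in steps of 0.1, high-glucose against control by the table's name. How the SLR was scaled, and whether it was made from the signals above, was not given in the sources used here. A constant added to the log2 ratios of the signals would not give the SLR. Relative to the shift Plg stood at -0.02 and Serpina1a at 0.65, with an SLR of 4.2 and 1.2 in the authors' deposited table. All 53 genes and all 66 probe sets had a positive SLR in the authors' deposited table, where 36% of the 1625 listed probe sets did. Since the authors chose the listed probe sets from this comparison, the count is a description. The SLR of members ran only from 0.4 to 0.7 in the authors' deposited table, which spans -5.7 to 6.3 and lists 1 probe set between 0 and 0.4. Its positive values therefore start where the members lie, and smaller positive changes of any gene are hardly listed there.

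By gene, 7 had an SLR of 0.4, 27 of 0.5, 14 of 0.6 and 5 of 0.7 in the authors' deposited table. The genes at 0.7 were Rpl5, Rpl29, Rpl35, Rpl41, which encodes a very small basic protein, and Rps24. Of these, Rpl29 had signals of 633.3 on the high-glucose array and 984.1 on the control array, Rpl35 had 741.3 and 1223.8 on these arrays, and Rpl41 had 1018.6 and 1856.5. The genes at 0.4 in the authors' deposited table were Rpl3, Rpl7, Rpl15, Rpl27, Rpl28, Rpl30 and Rps12. Among them Rpl3 had signals of 1018.4 on the high-glucose array and 1905.4 on the control array, Rpl7 had 1042 and 1728.9, Rpl15 had 793.8 and 1342.4, and Rpl30 had 729.5 and 1204.1. Genes at either end of the SLR were lower by signal on the high-glucose array alike. As deposited, so were 52 of all 53 genes and 94.7% of expressed probe sets, so this does not mark the extremes. The median SLR was 0.5 for large and for small subunit genes in the authors' deposited table, a difference of 0. At 0.5 stood 11 of 30 large and 16 of 23 small subunit genes in the authors' deposited table. Members made up 66 of the 226 listed probe sets between 0.4 and 0.7 (29.2%) and 11.3% of all 585 positive ones in the authors' deposited table. Of 229 other listed bright probe sets, 39.7% had a positive SLR in the authors' deposited table, and their median SLR there was -0.3.

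**Figure D4:**
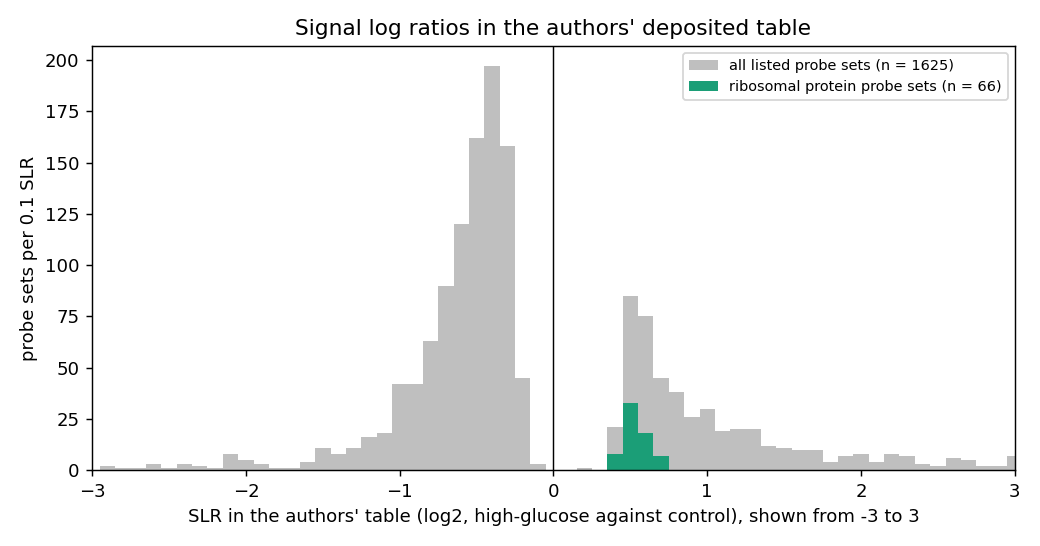
Number of probe sets at each SLR (log2, high-glucose against control, steps of 0.1) in the authors' deposited table, for all 1625 listed probe sets (grey) and the 66 ribosomal protein probe sets (green), shown from -3 to 3. All ribosomal protein probe sets lie between 0.4 and 0.7.

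The SLR and the signals did not order the members alike. Across the 53 genes, the SLR in the authors' deposited table and the relative log2 ratio of the signals were correlated with r = -0.14 (Pearson) and rho = -0.15 (Spearman), with the SLR taking only 4 values. The 7 genes with the lowest SLR in the authors' deposited table had a median relative log2 ratio of 0.24, and the 5 with the highest SLR had 0.11. Rps12 and Rpl28, at the lowest SLR of 0.4 in the authors' deposited table, were among the 5 genes past 1.5-fold by signal. Rps25, the highest by signal, stood at an SLR of 0.5 by the authors' deposited table. Rps24, at 0.7 in the authors' deposited table, stood at 0.03 relative to the shift. In each of the 11 genes with several probe sets the SLR values in the authors' deposited table differed by at most 0.2. Only for Rps25 did the SLR and the log2 ratio as deposited have the same sign, since the other 52 genes were lower by signal and positive by SLR. Relative to the shift, 42 of the 53 genes shared the positive sign of the SLR. Since the SLR of every member was positive, this is only the count above 0 by signal. Among other probe sets of like signal 65.4% were above 0, and 32 of the 53 genes lay above the loess trend.

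Genes with and without the C and T run at the start had overlapping values. The 13 genes with it had a median relative log2 ratio of 0.35, from -0.21 to 0.76, and the 25 without it 0.15, from -0.30 to 1.08. The median SLR was 0.5 for either class in the authors' deposited table. Whether the run and the ratio are related was not tested. The 20 genes with CCGGAAG had a median relative log2 ratio of 0.27 and the 18 without it 0.12, and these ranges overlapped too. Annotated starts can lie some bases off the true start, which moves a gene between the first classes.

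Other genes of the translation machinery were described from lists of symbols. The ribosome-associated protein Rack1, listed as Gnb2l1, stood at an SLR of 0.5 by the authors' deposited table. Its relative log2 ratio was 0.70, with signals of 806.4 on the high-glucose array against 974.8 on the control array. The elongation factor Eef1a1 and the TOP mRNA Tpt1 had an SLR of 0.5 and 0.6 in the authors' deposited table and relative log2 ratios of 0.67 and 0.48. Of 4 other TOP-class genes, which include these last 2, 3 had a positive SLR in the authors' deposited table. Positive there were 36% of all 1625 listed probe sets. The remaining TOP-class genes were Eif3e, listed as Eif3s6, at 0.6, and Nap1l1, a histone chaperone, at -0.6 in the authors' deposited table.

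Among 5 symbols starting with Eif, the SLR of 4 was below 0 in the authors' deposited table, from -0.2 for Eif4h to -0.6 for the argonaute Ago2, which is listed under the older symbol Eif2c2. Below 0 in the authors' deposited table were 64% of all 1625 probe sets, the share against which this and the next count are read. None of the 5 was 1.5-fold from the shift by signal. All 6 listed genes of growth signalling to translation were negative in the authors' deposited table, from -0.2 to -0.7. Among these were Mtor, listed as Frap1, at -0.6 and Larp1, which binds TOP mRNAs, at -0.7 in the authors' deposited table. By signal Mtor stood at 0.13 and Larp1 at 0.15 relative to the shift. The S6 kinase relative Rps6ka1, at 0.59, was the only one of the 5 expressed genes past 1.5-fold, and only just. It was dim, with signals of 17.2 on the high-glucose array and 22.4 on the control array. Past 1.5-fold upward were 14.7% of expressed probe sets. Ddit4, an inhibitor of mTOR signalling that did not count as expressed, had signals of 7.2 on the high-glucose array and 4.2 on the control array. Ribosomal proteins of the mitochondrion, a separate set of proteins, had an SLR of -0.3 for Mrpl16 and Mrpl38 in the authors' deposited table and 0.8, 3.0 and 4.4 for Mrpl11, Mrps25 and Mrpl19. The last 3 did not count as expressed by signal. Of 3 listed aminoacyl-tRNA synthetases, Nars and Farsb had an SLR of 0.4 and 0.6 and Iars -0.5 in the authors' deposited table, and 0 were 1.5-fold from the shift by signal.

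Of 3 listed ribosome biogenesis genes, Rpf2, listed as Bxdc1, helps to bring the 5S ribosomal RNA into the large subunit. Its signals were 82.1 on the high-glucose array and 38.7 on the control array, a relative log2 ratio of 2.06, and its SLR was 0.6 in the authors' deposited table. Nol6 stood at 0.75 from signals of 13.6 on the high-glucose array and 15.9 on the control array. Mybbp1a, which did not count as expressed, stood at -0.03 from 4.6 on the high-glucose array and 9.2 on the control array, with -0.4 as its SLR in the authors' deposited table. The array's control probe sets for the 18S ribosomal RNA, the RNA of the small subunit, had signals of 1706 at the 3' end, 1488 in the middle and 5229 at the 5' end on the high-glucose array, against 843, 515.2 and 6495 on the control array. Their relative log2 ratios of 1.99, 2.50 and 0.66 lay above the median of the ribosomal protein genes. Ribosomal RNA has no poly-A tail, and its labelling depends on priming within the RNA.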

How the data were processed

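Total RNA was extracted with Trizol, and biotin-labelled cRNA was made from 6 ug of it, per the labels' protocols. The intensity values were made with MAS5 by the authors before deposit, per the submitters' processing notes, and they name no version or scaling target. The authors' deposited comparison table gives the SLR on the log2 scale, and a signed fold change that was not used further.

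Samples were grouped by the diet label, with 1 array per diet and no test. Signals under 2.9, the mean of the 25th percentiles of both arrays, were set to it, and log2 ratios (high-glucose over control) were taken over 22626 probe sets that are not controls. The arrays had not been brought to a common level, so ratios were also given relative to the median of expressed probe sets. A gene was its brightest probe set. Of 53 member symbols, 52 were current in RefSeq and Rps3a was updated to Rps3a1. Members and lists, and the rule for genes named in full (the 6 highest and lowest relative ratios, SLR extremes, stalk proteins, paralogues and genes with several probe sets), were chosen with earlier results of these data known. Genes named for their role were added after values had been seen. So were the promoter motifs and the comparison with probe sets of like signal. Alternatives were 5 other scalings, 2 floors, 2 filters, 2 rules for probe sets, the exclusion of paralogues and 2 thresholds. Some genes of the lists are counted but not reported by name here. The scalings were tested on simulated data with the same shift at every signal level. That test cannot tell which scaling is right where the shift varies with signal, as it did on these arrays. Python 3.11.15, pandas 2.3.3 and statsmodels 0.14.6 were used.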

Additional observations from a re-analysis of the deposited data

How the results depend on the processing

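The median relative log2 ratio of the ribosomal protein genes depended on scaling, as did the medians of the large and small subunit genes, here in that order. They were -0.0063, -0.026 and 0.0091 with array medians (a shift of -0.72 in place of -0.97), 0.067, 0.020 and 0.076 after quantile normalization, 0.041, 0.029 and 0.086 after loess centring, and 0.13, 0.11 and 0.15 with no filter on low signals. The 5 genes at least 1.5-fold higher became 1 with each of the first 3 scalings, 2 with no filter and 2 of 30 genes without probe sets of suffix x or s. At a threshold of 0.32 on the log2 scale they were 19 and at 2-fold 1. Without suffixes x and s the large minus small difference was -0.17, and all 30 genes left had an SLR above 0 in the authors' deposited table. With each probe set counted, an alternative added after seeing the data, 1 probe set was at least 1.5-fold lower and the large minus small difference was 0.025, the only setting run that turned its sign. The median SLR stayed at 0.5 and the median uncorrected log2 ratio between -0.76 and -0.72 under the alternatives that were run for them. Settings for single genes were also added after seeing the data. Among the genes past 1.5-fold, Rps25 stayed past it under each alternative that kept its probe set, while Rps27, Rps12, Rpl37a and Rpl28 fell below it with the first 3 scalings, and Rps12 stood at 0.28 with the mean over its probe sets. The causes were not tested, and without suffixes x and s fewer genes were left. Trimmed mean scaling, the other floors, the shift of bright probe sets, the exclusion of the paralogue Rps27l and that of Rpl5 moved no median by over 0.1. No paired analysis was possible because there was 1 array per diet. Without replicates, no error of the array itself can be given.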

Other observations

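Of the 66 ribosomal protein probe sets, 31 carry the suffix x and 5 the suffix s, which mark probes that can match other transcripts, 24 the suffix a and 6 none. Ribosomal protein genes have many processed pseudogenes, and signals of such copies cannot be told apart on these probe sets. The median relative log2 ratio was 0.18 for suffix x, 0.25 for suffix a, 0.15 for suffix s and 0.26 for those with none. The median SLR was 0.6 for suffix x and 0.5 for each of the others in the authors' deposited table, and of the 7 ribosomal protein probe sets at 0.7 there, 6 carry suffix x.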
